A study of Homo sapiens with 16 samples.

Results

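Far intergenic regions are the stretches of changed H3K27ac that lie outside every annotated gene and a long way from any protein-coding gene. Acetylation of lysine 27 of histone H3 (H3K27ac) had been profiled by ChIP-seq in LX-2, a human line derived from hepatic stellate cells that carries myofibroblastic features. Cells received vehicle (DMSO, control) or 50 µM OSMI-1 for 24 h, an inhibitor of O-GlcNAc transferase (OGT), the enzyme that attaches O-GlcNAc to nuclear and cytosolic proteins. OSMI-1 is called OGTi here. There were 4 control and 4 OGTi H3K27ac libraries, and the other 8 libraries of the series (input DNA and CoP-seq, which sequences column-purified open chromatin) were not used here. Both arms were cultures of this single line.

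The data available were 2 lists of genomic positions on hg38, one where H3K27ac fell under OGTi (lost regions) and one where it rose (gained regions). A listed region was taken as far intergenic when none of its bases lay within 2500 bp of the 5′ end of any GENCODE gene, its centre lay in no annotated gene, and its centre was more than 100 kb from the 5′ end of the nearest protein-coding gene. On chromosomes 1 to 22 and X, 596 of 7119 listed regions (8.37%) met this rule. The rule used position alone and not the direction of change. The lists hold no H3K27ac level, fold change or value per library, so that the size of a change, its spread between cultures and the read depth behind it are unknown, and LX-2 markers could not be checked in them. Regions are therefore the unit of every test below, and intervals and p-values cover counting error over regions only. Neighbouring regions tended to share a direction, and single-region p-values overstate the number of independent observations.

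H3K27ac marks active promoters and enhancers, the DNA elements at which transcription factors recruit acetyltransferases such as p300 and CBP. Enhancers can act on a promoter over long stretches of DNA through chromatin looping, and gene deserts often hold the enhancers of developmental regulators. The gene nearest on the map is thus a landmark and need not be the target. In stellate cells, factors of the AP-1 and TEAD families are well known at such distal elements. AP-1 dimers of FOS and JUN proteins bind TGACTCA or TGAGTCA, and were searched here by the wider word TGANTCA, with any middle base. TEAD factors, the DNA-binding partners of YAP, bind CATTCC preceded by A or G and followed by A or T. ATF4, the factor of the amino acid and stress response, pairs with C/EBP proteins on TGATGCAA.

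To show the DNA that these comparisons rest on, 60 bases around a TEAD match are given for the 5 lost runs with the most far intergenic regions, a run being a chain of listed regions that share a direction, with no more than 50 kb from one centre to the next. In each run the match shown is the one nearest to the centre of its region. Sequences are from the plus strand of hg38, 5′ to 3′, and the capitals mark the match, which reads ACATTCCT or GCATTCCA on the plus strand in the matches at chr9:79018363-79018422, chr11:87442825-87442884 and chr14:83468063-83468122, and the reverse complement of a TEAD word in those at chr9:26266285-26266344 and chr9:78866914-78866973.
Lost, run of 17 between PSAT1 and TLE4: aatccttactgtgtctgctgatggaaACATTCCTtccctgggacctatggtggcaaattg
Lost, run of 13 between TUSC1 and CAAP1: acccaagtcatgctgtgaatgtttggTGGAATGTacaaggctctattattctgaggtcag
Lost, run of 12 between TMEM135 and RAB38: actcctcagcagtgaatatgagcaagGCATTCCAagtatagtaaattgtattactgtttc
Lost, run of 11 between PSAT1 and TLE4: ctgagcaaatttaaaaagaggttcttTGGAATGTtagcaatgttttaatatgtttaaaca
Lost, run of 8 between SEL1L and FLRT2: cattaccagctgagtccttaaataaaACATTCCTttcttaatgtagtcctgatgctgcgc

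The corresponding AP-1 matches, in capitals, are shown for 4 of the 5 gained runs with the most far intergenic regions, because AP-1 had the smallest p-value of the motifs compared. They lie at chr5:98311710-98311768, chr5:173454520-173454578, chr12:88896574-88896632 and chr12:88299588-88299646, in the order printed. The sequence of the remaining run, the largest, is not reported here.
Gained, run of 5 between RIOK2 and RGMB: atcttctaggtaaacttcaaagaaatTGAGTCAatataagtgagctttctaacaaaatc
Gained, run of 4 between STC2 and BOD1: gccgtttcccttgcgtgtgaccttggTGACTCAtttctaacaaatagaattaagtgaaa
Gained, run of 3 between KITLG and DUSP6: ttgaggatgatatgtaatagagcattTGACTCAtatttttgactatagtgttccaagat
Gained, run of 3 between TMTC3 and KITLG: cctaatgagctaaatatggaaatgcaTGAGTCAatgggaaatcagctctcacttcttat

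Matches to the ATF4-C/EBP word, in capitals, are shown for 3 of the gained regions that hold one, chosen because the match was among the closest to the centre of its region (14, 90 and 91 bp away). Their nearest protein-coding genes encode the transcription factors KLF4 and SALL4 and the nuclear IkB protein NFKBIZ. They are at chr9:107749948-107750007, where the word lies on the minus strand, chr3:101936783-101936842 and chr20:51985110-51985169.
Gained, nearest to KLF4: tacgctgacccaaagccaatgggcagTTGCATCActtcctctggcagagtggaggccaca
Gained, nearest to NFKBIZ: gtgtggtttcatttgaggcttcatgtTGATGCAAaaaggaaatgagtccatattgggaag
Gained, nearest to SALL4: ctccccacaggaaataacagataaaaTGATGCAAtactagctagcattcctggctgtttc

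The centres of 2 regions are given in full, one with 3 AP-1 matches and one with 2 TEAD matches, in capitals. The first 2 AP-1 matches read TGAATCA, with A in the middle, and the last reads TGAGTCA. The gained one, chr16:86676268-86676567, lies 100.05 kb from FOXL1, a forkhead factor of mesenchymal cells, and is the far intergenic region closest to the distance limit. The lost one, chr2:226478075-226478374, lies between NYAP2 and IRS1, the latter the insulin receptor substrate, at 321.595 kb from IRS1.
Gained, near FOXL1: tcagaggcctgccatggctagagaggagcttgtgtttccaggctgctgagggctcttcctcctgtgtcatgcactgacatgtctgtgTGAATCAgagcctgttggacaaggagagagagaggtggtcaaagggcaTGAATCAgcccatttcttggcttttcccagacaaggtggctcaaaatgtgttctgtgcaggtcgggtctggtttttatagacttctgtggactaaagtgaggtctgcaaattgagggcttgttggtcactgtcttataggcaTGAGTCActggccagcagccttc
Lost, between NYAP2 and IRS1: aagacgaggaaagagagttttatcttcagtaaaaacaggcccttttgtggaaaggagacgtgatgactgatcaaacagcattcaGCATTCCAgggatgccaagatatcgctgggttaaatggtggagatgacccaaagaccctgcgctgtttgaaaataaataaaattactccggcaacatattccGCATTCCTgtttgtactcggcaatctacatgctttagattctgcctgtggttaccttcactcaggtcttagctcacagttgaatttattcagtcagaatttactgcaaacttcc

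Most listed far intergenic regions were lost ones. Regions without a called change are on neither list, so the shares below divide called regions by direction. Of the 596 regions, 428 were lost and 168 gained, a lost share of 71.8% (Wilson 95% interval 68.1% to 75.3%), against 49.1% over all 7119 listed regions. Among the other 6523 listed regions, 3068 were lost (47.0%). The odds of being lost were 2.87 times those of the other regions (95% interval 2.39 to 3.45), and the shares differed by Fisher's exact test, two-sided (p = 1.19e-31). With the widest region of each position class kept per run, the odds ratio was 2.30 (p = 6.37e-14, Fisher's exact test). In that count 237 of 363 far intergenic and 2121 of 4719 other regions were lost. A run that crossed the position classes given below was counted in each. Joining regions that abut left 357 lost and 147 gained blocks, 70.8% of 504 blocks being lost.

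The lost share was lowest at gene starts and highest outside genes. It was 33.5% of 2209 regions within 2500 bp of a gene start (TSS-proximal), 51.8% of 3526 regions centred in a gene and 63.5% of 788 regions that were outside genes but within 100 kb of a protein-coding gene start (near intergenic). Far intergenic regions exceeded near intergenic ones, of which 500 were lost, with an odds ratio of 1.47 (1.17 to 1.85, p = 0.00121, Fisher's exact test). This difference moved with the runs. When each run counted once per class, the odds ratio was 1.19 (p = 0.215, Fisher's exact test), with 237 of 363 far and 360 of 588 near regions lost. Among regions alone in their run it was 0.987 (p = 1, Fisher's exact test), with 138 of 226 and 205 of 334 lost.

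**Figure D1:**
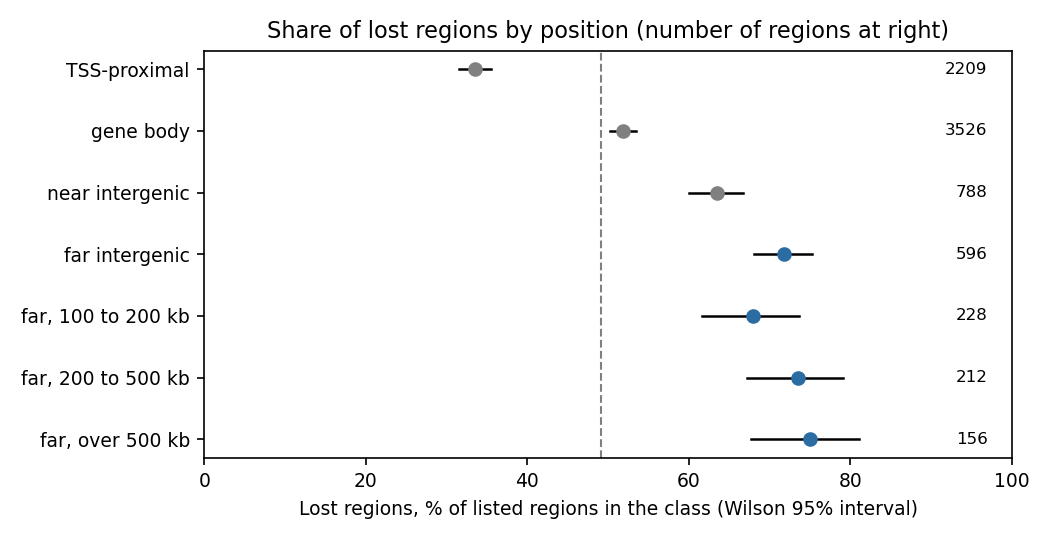
Lost regions as a percentage of the listed regions in each class (x axis), with Wilson 95% intervals as bars and the number of regions at the right; blue points are far intergenic regions and their distance classes, grey points the other classes, and the dashed line marks 49.1%, the share over all listed regions. Far intergenic regions stood at 71.8%, and the intervals of their 3 distance classes overlapped.

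Within the far intergenic regions no difference in direction by distance was detected. The lost share was 68.0% (155 of 228) at 100 to 200 kb, 73.6% (156 of 212) at 200 to 500 kb and 75% (117 of 156) beyond 500 kb. None of the 3 classes differed from the rest past the threshold of 0.05 (Fisher's exact tests, Benjamini-Hochberg adjusted p = 0.335, 0.506 and 0.506; the smallest unadjusted p was 0.112). The median distance to the nearest protein-coding 5′ end was 274 kb for lost and 251 kb for gained regions, with 50.9% of lost regions and 80 of 168 gained regions above the median of all far intergenic regions (odds ratio 1.14, 0.799 to 1.63, p = 0.524, Fisher's exact test). Around the limit of the rule, the regions just inside were gained, at 100.05 kb from FOXL1, 100.182 kb from TWIST2 and 100.71 kb from MAGI2, and the nearest ones just outside were lost, at 99.023 kb from COL6A3 and 99.724 kb from ENTREP2.

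The farthest regions lay in large gene deserts. The lost region farthest from a protein-coding gene start, chr14:83479687-83480765, was 1946 kb from SEL1L, which encodes the adaptor of the HRD1 ubiquitin ligase in the endoplasmic reticulum. The farthest gained region, chr4:62436800-62440275, was 1238 kb from ADGRL3, an adhesion G protein-coupled receptor. The widest lost region spanned 3748 bp at chr5:13565696-13569443, with the axonemal dynein gene DNAH5 as its nearest protein-coding gene, and the widest gained one 3511 bp at chr6:108735759-108739269, with ARMC2 as its nearest.

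Non-coding gene starts were closer than protein-coding ones. The median distance to the nearest 5′ end of a non-coding gene was 44.4 kb for lost and 31.4 kb for gained regions. Such a start lay within 10 kb of 43 of 428 lost regions (10.05%) and 26 of 168 gained regions (15.5%), an odds ratio of 0.610 (0.361 to 1.03) that missed the threshold (p = 0.0658, Fisher's exact test). The nearest non-coding gene was a long non-coding RNA for 39.3% of lost and 56.5% of gained regions, a pseudogene for 44.4% and 33.3%, and a small or other RNA for 16.4% and 10.1%. This split by gene type was chosen after its values were seen and carries no test. The non-coding genes nearest to most lost regions were the keratin pseudogene KRT18P24 (17 regions), ENSG00000276759 (13 regions, a long non-coding RNA) and ENSG00000255391 (12 regions, a processed pseudogene). For gained regions they were ENSG00000176183 (5 regions, a processed pseudogene), MIR222HG (5 regions), the host transcript of miR-221 and miR-222, and LINC01776 and ENSG00000253141, which tied with 4 regions each.

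**Figure D2:**
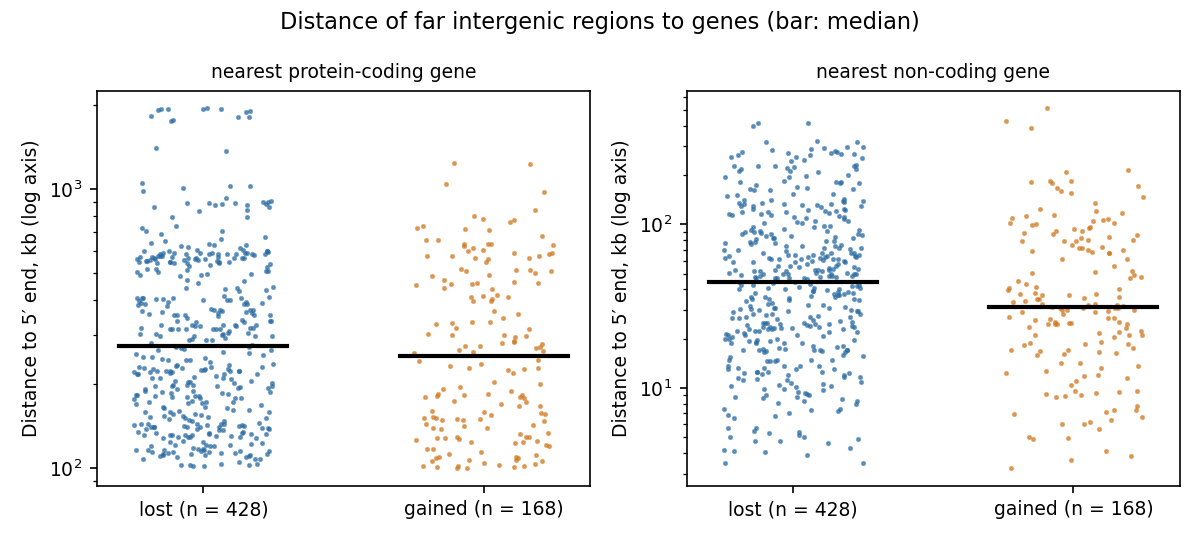
Distance in kb from the centre of each far intergenic region to the nearest 5′ end of a protein-coding gene (left) and of a non-coding gene (right), on log axes, for 428 lost and 168 gained regions; each point is a region, spread sideways at random, and the bar is the median. The medians were 274 and 251 kb for protein-coding genes and 44.4 and 31.4 kb for non-coding genes, and the lost and gained points overlapped over most of their range.

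The sequence that qualifies as far intergenic made up 641 of 2911 Mb of known bases (22.02%). It held 428 of 3496 lost and 168 of 3623 gained regions, 8.37% of all listed. Both directions were thus sparser there than over the whole genome. Lost regions occurred in it at 0.668 per Mb and gained regions at 0.262 per Mb. Chromosome 9 had the highest density of lost regions, 2.42 per Mb, with 74 lost and 15 gained, and chromosome 20 followed with 1.74 per Mb, 25 lost and 2 gained. In neither did the lost share differ from that of the other far intergenic regions past the threshold (adjusted p = 0.109 for both, Fisher's exact tests with Benjamini-Hochberg adjustment over 23 chromosomes). Chromosome X was the 1 chromosome past the threshold, and there gained regions prevailed, with 5 lost and 13 gained (odds ratio 0.141, 0.0494 to 0.402, adjusted p = 0.00240, Fisher's exact test). Of those 13, 8 belonged to 1 run, and when each run counted once the odds ratio was 0.416 (adjusted p = 1, Fisher's exact test). Without chromosome 9, far intergenic regions stayed more often lost than the other listed regions, 354 of 507 against 2901 of 6213 (odds ratio 2.64, p = 6.66e-24, Fisher's exact test).

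**Figure D3:**
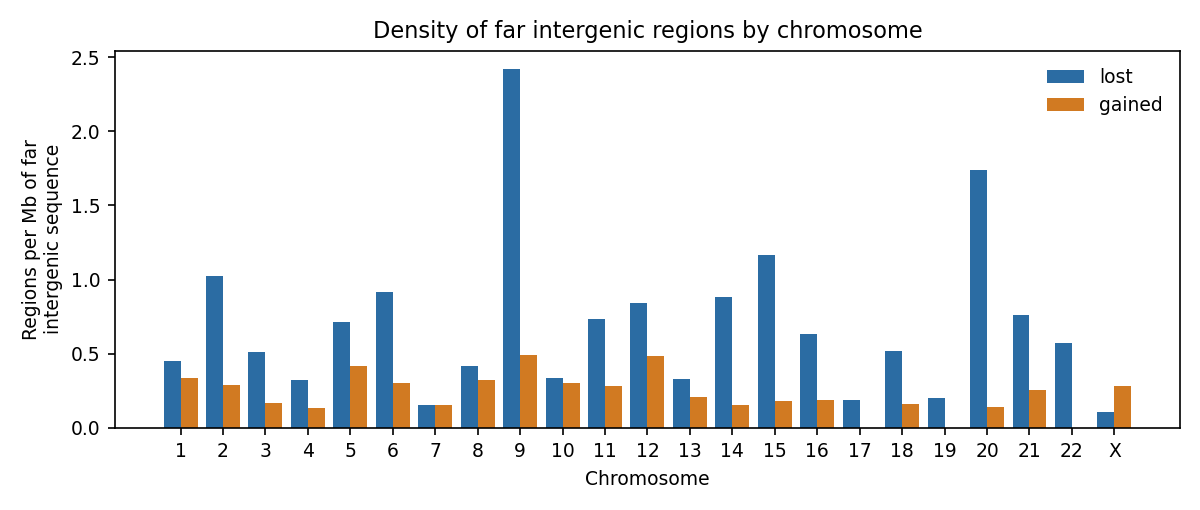
Lost (blue) and gained (orange) far intergenic regions per Mb of far intergenic sequence (y axis) on each chromosome (x axis). Chromosome 9 had 2.42 lost regions per Mb against 0.668 over all chromosomes, and on chromosome X gained regions (0.282 per Mb) outnumbered lost ones (0.108 per Mb).

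Lost far intergenic regions were gathered in runs more often than gained ones. Runs of 3 or more listed regions held 204 of 428 lost regions (47.7%) and 51 of 168 gained regions (30.4%), an odds ratio of 2.09 (1.43 to 3.05, p = 0.000112, Fisher's exact test). Lost regions were also the commoner direction in far intergenic sequence, which lengthens same-direction runs, and the test does not separate this from clustering. Counted by run, 50 of 237 lost and 21 of 126 gained runs had 3 or more regions, which missed the threshold (odds ratio 1.34, p = 0.334, Fisher's exact test). The 428 lost regions fell into 237 runs, with 138 regions (32.2%) alone in theirs, and the 168 gained regions into 126 runs, with 88 (52.4%) alone. Lost runs with 5 or more far intergenic regions numbered 14 and held 108 regions, 25.2% of the lost ones, whereas 2 gained runs of that size held 13 regions. Wide peaks had been cut into bins before testing, and 119 lost and 35 gained regions abutted another far intergenic region of their direction.

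Neighbours shared a direction at short range and less at long range. Another listed region lay within 50 kb of 296 lost regions, and the nearest was also lost for 98.0% of them. For the 88 gained regions with such a neighbour, the nearest was also gained for 89.8%. Of all listed regions, 49.1% were lost. Abutting regions count as neighbours here, and 119 lost and 35 gained regions abutted another far intergenic region of their direction. When the nearest listed region was beyond 50 kb, the direction matched for 56.1% of 132 lost and 63.8% of 80 gained regions.

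The longest lost runs lay in a few deserts. Between PSAT1, which encodes the phosphoserine aminotransferase of serine synthesis, and TLE4, a Groucho-family corepressor, an interval of 1242 kb on chromosome 9 held 36 lost and no gained far intergenic regions. Its run of 17 regions, chr9:78932089-79055416, covered 30.2 kb of 123.3 kb, began 602 kb from the end of PSAT1 and ended 516 kb before TLE4. A second run there, chr9:78811703-78874549, had 11 regions. The other 3 of the 5 largest lost runs were chr9:26243088-26326646, with 13 regions between TUSC1 and CAAP1, chr11:87421050-87474745, with 12 regions between TMEM135 and RAB38, a small GTPase of melanosome traffic, and chr14:83425101-83480765, with 8 regions between SEL1L and FLRT2, an adhesion protein of the cell surface.

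Motif matches in these runs were counted over whole regions, without a test. Searched the same way, 46.0% of all lost far intergenic regions held TEAD and 61.9% AP-1, against 35.09% and 55.09% of all listed regions. In this count 7 of 17 regions of the longest run held a TEAD match and 11 an AP-1 match. The 11 regions of the second run in that interval held each motif in 5 regions. In the TUSC1 to CAAP1 run 8 of 13 regions held TEAD and 8 AP-1, and in the TMEM135 to RAB38 run 7 of 12 held TEAD and 5 AP-1. The run between SEL1L and FLRT2 had 1 region with TEAD and 1 with AP-1 among 8, at a mean GC content of 33.8%. Chosen after its values were seen, a run of 5 lost regions at chr9:16119089-16204601 lay between CCDC171 and BNC2, a zinc-finger factor of myofibroblasts. It ended 205 kb from the nearer edge of the BNC2 gene. The protein-coding 5′ end nearest to its regions was that of CCDC171, 567 to 651 kb away. Of its regions, 2 held TEAD and 4 AP-1.

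Of the 5 gained runs with the most far intergenic regions, 1 was long and the others were small. The largest, chrX:45708648-45806520, had 8 far intergenic regions in a run of 18 listed regions, spanning 143.3 kb in all, between DIPK2B and KRBOX4, and the remaining regions of that run were centred in a gene or TSS-proximal. The next were 5 abutting regions at chr5:98307269-98315832 between RIOK2, a kinase of small ribosomal subunit maturation, and RGMB, a BMP co-receptor, and 4 abutting regions at chr5:173450696-173458413 between STC2, a secreted glycoprotein and ATF4 target, and BOD1. Both further runs had 3 regions and flanked KITLG, the ligand of the KIT receptor, at chr12:88896322-88926961 towards DUSP6, an ERK phosphatase, and at chr12:88298340-88326337 towards TMTC3. Over whole regions, 70.8% of all gained far intergenic regions held an AP-1 match. In these runs it was present in 5 of 8 regions of the DIPK2B run, 5 of 5 of the RGMB run, 3 of 4 of the STC2 run, and 2 of 3 and 3 of 3 of those flanking KITLG towards DUSP6 and TMTC3.

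**Figure D4:**
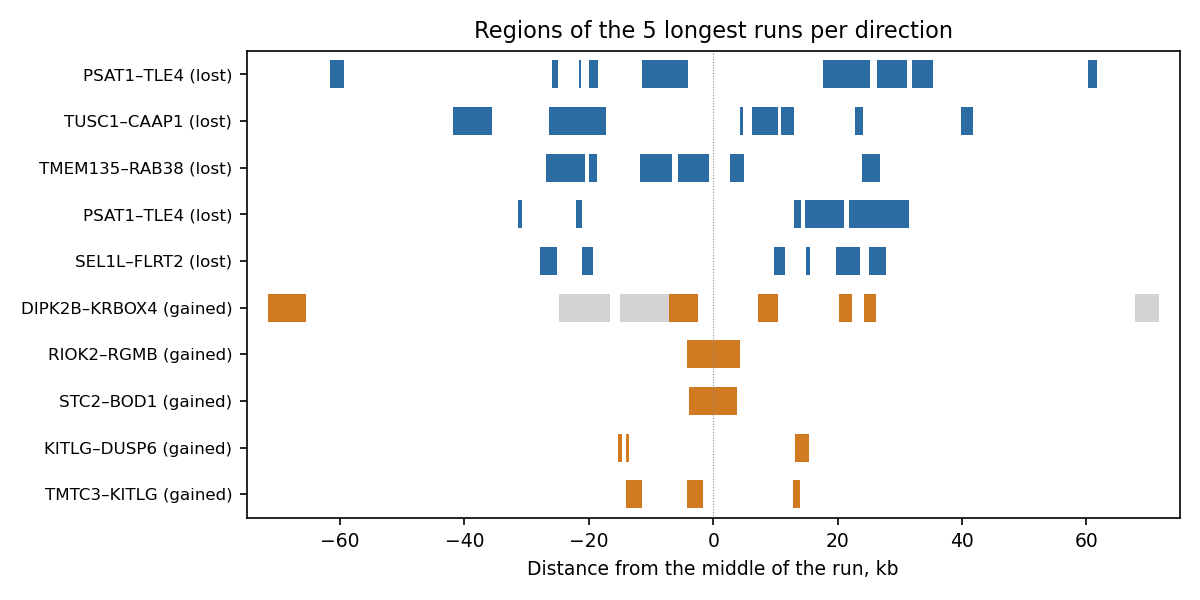
The 5 lost (blue) and 5 gained (orange) runs with the most far intergenic regions, each named by its flanking protein-coding genes; boxes are listed regions drawn to scale along the distance in kb from the middle of the run (x axis), and grey boxes are regions of the run outside the far intergenic class. Lost runs spread 17, 13, 12, 11 and 8 regions over 53.7 to 123.3 kb. With all listed regions, the gained run between DIPK2B and KRBOX4 spanned 143.3 kb, those flanking KITLG 28 to 30.64 kb, and those near RGMB and STC2 8.56 and 7.72 kb.

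Intervals between neighbouring protein-coding genes were counted without a test. An interval that holds 1 region or 1 run has 1 direction by definition, which was so for many of them. Of all far intergenic regions, 71.8% were lost. The regions lay in 278 intervals, of which 168 held lost regions, 86 gained regions and 24 both. Of the 120 intervals with at least 2 regions, 72 held lost regions alone, 24 gained regions alone and 24 both. The intervals SEL1L to FLRT2 (13 lost, 1 gained), NYAP2 to IRS1 (8 lost, 1 gained), RIOK2 to RGMB (3 lost, 5 gained) and ACTBL2 to PLK2 (5 lost, 2 gained) were of the last kind. HAAO to ZFP36L2, the latter an RNA-decay factor, held 9 lost regions, and KLF4 to ACTL7B 6 gained regions, with none of the other direction.

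By nearest protein-coding 5′ end, 212 genes were nearest to lost regions and 117 to gained regions, and 12 genes were nearest to both. One region only was assigned to 127 of the former and 90 of the latter. The genes nearest to most lost regions were TLE4 (21 regions, 211 to 603 kb away), PSAT1 (15, 296 to 636 kb), SEL1L (13), TMEM135 (13) and TUSC1 (8, 286 to 588 kb). Those nearest to most gained regions were DIPK2B (10, 278 to 605 kb), RGMB (5, with 3 lost regions also), RND3 (5, 106 to 463 kb) and STC2 (4). At 3 gained regions each, ACTL7B, CREM, DAB2, DPYD, KITLG, KLF4, TMTC3 and UBE2V2 tied. Among these, CREM is a cAMP-responsive factor, DAB2 an endocytic adaptor, DPYD the first enzyme of pyrimidine breakdown and KLF4 a zinc-finger factor.

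Gene lists were counted by the same assignment. Of 49 mesenchymal and stellate cell transcription factors, 6 were nearest to 27 lost regions, 21 of them those of TLE4, and 6 to 9 gained regions, among them KLF4 (3), TBX3 (2) and TWIST2 (1). The list, chosen with earlier results of these data known, took 6.04% of far and 0.888% of near intergenic regions. Most of the far ones were those of TLE4, a corepressor. Of 28 YAP and TEAD target genes, CRIM1 (4) and IGFBP3 (1) were nearest to lost regions and none to gained ones, 0.839% of far against 1.52% of near intergenic regions, the latter 7 lost and 5 gained. Of 28 ATF4 and amino acid response genes, PSAT1 (15) and SLC7A1 (1) were nearest to lost regions and STC2 (4) to gained ones. This list took 3.36% of far and 0.508% of near intergenic regions, the latter 0 lost and 4 gained. Among 48 axon guidance and adhesion genes, 3 were nearest to 6 lost regions, SEMA3C (3), EPHA5 (2) and SLIT2 (1), and CDH2 and FLRT2 to 1 gained region each. The shares were 1.34% of far and 0.254% of near intergenic regions.

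The study's own gene lists were taken from earlier work of its field. The myofibroblast identity list (129 symbols) had 20 lost regions at 9 genes, among them DCBLD2 (5), a transmembrane receptor, and 12 gained regions at 7 genes, together 5.37% of far against 5.96% of near intergenic regions. The fibrogenic list had 17 lost regions, 15 of them at PSAT1, and 2 gained, together 3.19% of far against 2.54% of near intergenic regions. The liver fibrosis genes had 5 lost and 5 gained, the liver fibrosis matrisome 1 lost and 3 gained (2 of these at COL6A3, a collagen VI chain), and the genes of heart, kidney and lung fibrosis 4 lost and 1 gained. In that order, these lists took 1.68%, 0.671% and 0.839% of far and 2.03%, 1.52% and 2.28% of near intergenic regions. The other lists took between 0.671% and 3.36% of far intergenic regions. No list was tested, and a count can rest on 1 run. Of all far intergenic regions, 71.8% were lost.

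Far intergenic regions were poor in GC. In the central 1000 bp the mean GC content was 42.4% ± 6.66 (SD, n = 428) for lost and 40.5% ± 6.22 (SD, n = 168) for gained regions, against 46.4% in near intergenic and 48.6% in all listed regions. Above the median of all far intergenic regions were 53.0% of lost and 40.5% of gained regions, an odds ratio of 1.66 (1.16 to 2.39, p = 0.00632, Fisher's exact test). It was 1.27 (p = 0.342, Fisher's exact test) when only regions beyond 200 kb were taken, 273 lost and 95 gained. The CpG observed/expected ratio averaged 0.176 ± 0.0969 (SD, n = 428) in lost regions and 0.194 ± 0.128 (SD, n = 168) in gained ones (odds ratio of being above the median 0.767, 0.536 to 1.10, p = 0.172, Fisher's exact test) and 0.315 over all listed regions. The median width was 1934 bp for lost and 1736 bp for gained regions (odds ratio 1.35, 0.943 to 1.93, p = 0.122, Fisher's exact test). With the widest region kept per run, the odds ratio was 1.79 (p = 0.0111, Fisher's exact test). That choice favours wider lost regions, since lost runs held more regions each, and no conclusion on width is drawn from it.

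Motifs were searched on both strands of the central 1000 bp, a window of one length for all regions, and 18 were compared. In 2 the lost and gained shares differed past the threshold, and both were more frequent in gained regions. The AP-1 word, with any base in the middle, was found in 69.6% of gained regions (117 of 168, Wilson 95% interval 62.3% to 76.1%). In lost regions it was found in 49.3% (211 of 428, 44.6% to 54.0%), against 45.8% of all listed and 53.2% of near intergenic regions. The odds ratio of lost to gained was 0.424 (0.290 to 0.620, adjusted p = 0.000122, Fisher's exact test with Benjamini-Hochberg adjustment). It was 0.426 with 1 region per run and 0.409 among regions alone in their run, and 0.669 (adjusted p = 0.165, Fisher's exact test) when whole regions were searched.

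Counts and positions of AP-1 matches are given without a test. At least 2 matches stood in 25.6% of gained and 13.8% of lost regions. Per kb of sequence, gained regions had 1.25 matches within 100 bp of the centre and 0.691 at 500 to 1000 bp, and lost regions 0.701 and 0.488. Both forms of the word, compared after the AP-1 result was seen, were more frequent in gained regions. Words with C or G in the middle, TGACTCA and TGAGTCA, were in 47.6% of gained and 34.3% of lost regions (32.4% of all listed), and those with A or T in 35.1% and 21.5% (20.0% of all listed). Their odds ratios were 0.575 (adjusted p = 0.0323) and 0.506 (adjusted p = 0.0142, Fisher's exact tests).

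The ATF4-C/EBP word was rare, in 14 of 168 gained regions (8.33%) and 10 of 428 lost regions (2.34%), against 5.24% of all listed regions. The odds ratio was 0.263 (0.115 to 0.605, adjusted p = 0.0165, Fisher's exact test). Without chromosome 9 it was 0.375 (adjusted p = 0.178), and beyond 200 kb 0.448 (adjusted p = 0.664, Fisher's exact tests).

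TEAD matches were in 32.5% of lost regions (139 of 428) and 25% of gained regions (42 of 168), against 25.3% of all listed and 32.4% of near intergenic regions. The difference between lost and gained regions missed the threshold (odds ratio 1.44, 0.964 to 2.16, adjusted p = 0.341, Fisher's exact test). With the distance limit at 50 kb in place of 100 kb it passed (odds ratio 1.67, adjusted p = 0.0156, Fisher's exact test). NF-kB, the motif of the RELA family, was in 14.5% of lost and 7.14% of gained regions and also missed the threshold (adjusted p = 0.0787, Fisher's exact test). All listed regions had it at 15.04% and near intergenic ones at 12.8%. Per kb, TEAD matches within 100 bp of the centre ran the other way, 0.362 in lost and 0.625 in gained regions (31 and 21 matches, not tested), and at 100 to 250 bp they stood at 0.452 and 0.278. By combination, TEAD without AP-1 was found in 17.5% of lost and 8.33% of gained regions, AP-1 without TEAD in 34.3% and 53.0%, both in 14.95% and 16.7%, and neither in 33.2% and 22.02%. Of TEAD matches, 8.93% in lost and 3.85% in gained regions overlapped a match of another motif searched, and of AP-1 matches 0.699% and 0.565% did so.

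The motif differences were not shown to be particular to far intergenic regions. AP-1 was in 63.2% of gained and 47.4% of lost near intergenic regions, and in 58.3% and 47.4% of regions centred in genes. In a logistic regression over all regions outside the TSS-proximal class, the interaction of direction and far intergenic position passed the threshold for 0 of 18 motifs, and for 0 at an unadjusted p under 0.05. AP-1 came closest (ratio of odds ratios 0.678, p = 0.0530, adjusted p = 0.639, likelihood ratio test, n = 4910 regions).

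**Figure D5:**
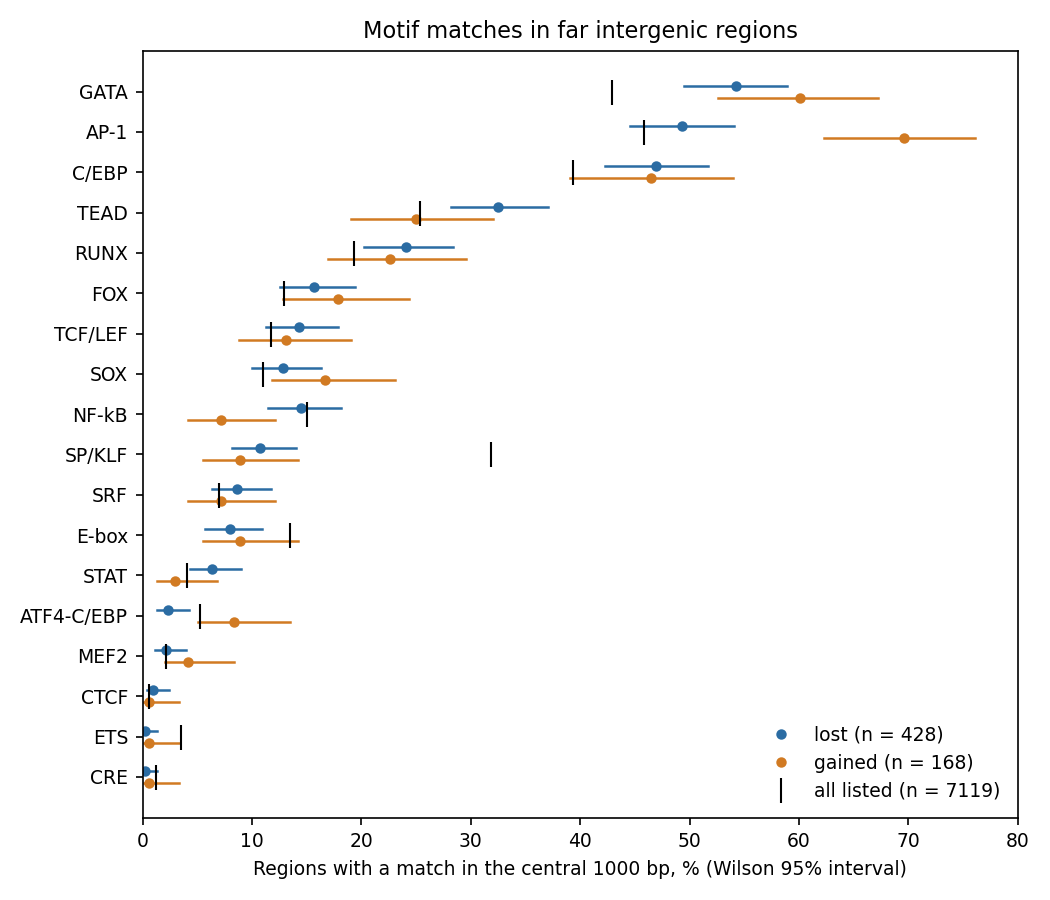
Share of far intergenic regions with at least 1 match in the central 1000 bp (x axis, %) for 18 motifs (y axis), in 428 lost (blue) and 168 gained (orange) regions with Wilson 95% intervals; black ticks are the share over all 7119 listed regions. AP-1 stood at 49.3% in lost and 69.6% in gained regions, and for most motifs the intervals of both directions overlapped.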

How the data were processed

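H3K27ac ChIP-seq had been performed on LX-2 cells in 4 independent experiments per arm. According to the study's methods, the authors used Chromap to map reads to hg38, called peaks per library against input with MACS2 (version 2.1.1.20160309 in the submitters' processing notes), removed duplicates and blacklisted regions, and identified differential bins with MAnorm2 over all 8 libraries. Wide peaks were thereby cut into bins. The deposited files hold the chromosome, start and end of each region, in bp, and no other measurement. The names of the lists give an adjusted p threshold of 0.15 and the methods text a stricter one, and the lists were used as deposited. No depth is known. The study's predicted enhancer-gene links were not used here.

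Starts were converted to count from 1. Genes (62062, of which 19970 protein-coding) came from GENCODE release 44 and sequence from hg38. Regions off chromosomes 1 to 22 and X, 11 lost and 0 gained, entered no comparison. Shares were compared with Fisher's exact test, two-sided, with log-normal 95% intervals of the odds ratio. Width, GC content, CpG ratio and distance were divided at the median of all far intergenic regions, since regions were not resampled. Motif interactions used logistic regression. Families were adjusted by Benjamini-Hochberg, with a threshold of 0.05. Python 3.11.15, scipy 1.17.1 and statsmodels 0.14.6 were used, and the scripts were tested on simulated data. Beside the 3 motifs spelled out above, consensus words were searched for C/EBP (TTGCNNAA), ETS factors (CCGGAAGT), STAT proteins (TTCCNGGAA) and the cAMP response element (TGACGTCA). Runt factors were searched as AACCACA, and SP and KLF factors as GGGCGG. The E-box was searched as CACGTG, and forkhead factors (FOX) as TGTTTAC. The word for the GATA family was AGATAA, that for TCF and LEF was ATCAAAG, and that for SOX factors was ACAATGG. SRF, NF-kB, CTCF and MEF2 were searched by their usual consensus.

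Named were, per direction, the 5 runs with most far intergenic regions, the 5 protein-coding genes (with ties) and 3 non-coding genes nearest to most of them, the farthest and the widest region, list genes with at least 5 regions, motifs past the threshold and TEAD. Others are named as examples of a count or as stated. A few items that this rule selects are not reported here. The regions, lists, motifs and tests were chosen with earlier results of these data known, and the regions without chromosome 9, those alone in their run and the 2 forms of the AP-1 word were examined as alternatives after the values were seen.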

Additional observations from a re-analysis of the deposited data

Results flagged for a closer look

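Outside the chromosomes compared, 10 regions of the lost list lay on the mitochondrial genome, covering 10156 bp of it, and no gained region did. That count of 0 allows up to 3 if regions are taken as independent, which neighbouring regions need not be. Whether these listed regions reflect H3K27ac was not tested. These regions entered no comparison and were noted because they belong to data outside the main measurement.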

How the results depend on the processing

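Alternatives gave 527 values, of which 496 stayed on the same side of the threshold (numbers of calls: moved by 1.5 times at most), and the excess of lost regions over all other listed regions passed it in every alternative run (odds ratio 2.15 to 3.15). Counting each run once per position class gave odds ratios of 1.191 for far against near intergenic regions and 1.337 for runs of 3 or more. Both were no longer past the threshold. For width it gave 1.787, now past the threshold, but the widest region of each run was the one kept. Among regions alone in their run, an alternative added after the values were seen, far against near turned to 0.9868, and with centres in no protein-coding gene it was 1.195, past no threshold. Chromosomes past the threshold went from 1 to 0 with 1 region per run, without runs of 10 or more and among regions alone in their run. At a 50 kb limit, 4 motifs and 1 distance class passed, as did distance (1.521) and non-coding gene starts (0.6112); at 200 kb GC content did not (1.273). Motifs past the threshold numbered 1 at 200 kb, with the 5′ ends of all transcripts, without chromosome 9 (added after the values were seen) and for regions alone in their run, and 0 with whole regions searched. The causes were not tested. Some results past no threshold also changed side, such as non-coding gene starts among regions alone in their run (1.401). No paired analysis was possible because only positions, with no value per library, were analysed here; leaving out a replicate and a stricter threshold were not run either. The repeat-masked comparison was not run, since the sequence used carries no masking. Depth limits are unknown.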
